A study of Homo sapiens with 4 samples.

Results

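Death receptors are cell surface proteins of the TNF receptor family that carry a death domain on their inner side. When FASLG or TRAIL binds its receptor, the adaptor FADD is recruited, which brings the initiator caspases CASP8 and CASP10 together. CFLAR, a relative of these caspases without full protease activity, limits their activation. The TNF receptor instead assembles the kinase RIPK1 with ubiquitin ligases, so that the same receptor family can lead to NF-kB activity or to death, and decoy receptors bind TRAIL without passing on a death signal. Described here are 10 genes of this system, the receptors FAS, TNFRSF1A, TNFRSF10A, TNFRSF10B, TNFRSF10D and TNFRSF21, the ligand TNFSF10 (TRAIL), the adaptors FADD and RIPK1, and the inhibitor CFLAR. They were chosen by symbol, and all 10 were found among the 18806 genes of the deposited expression table.

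RNA-seq was conducted in Huh7, an established line of human liver cancer cells, grown from 1 clone that stably expressed Cas9. The control group received lentivirus with the non-targeting guide sgNS (labelled WT, 2 libraries), and the other group received guide RNA against METTL16, an RNA m6A methyltransferase (labelled METTL16 knockdown and called METTL16 KO in the paper, 2 libraries). All 4 cell populations thus carried Cas9 and had been selected with hygromycin B. Whether the METTL16 KO libraries share a guide or come from different guides is not stated in the sources used here. The paper states 2 biological replicates, and where these were not transduced separately the p-values measure only the spread between such samples.

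Values are TPM, a transcript abundance scaled by transcript length and by the total of a library, so that levels of different genes can be set side by side. TPM keeps no read counts, and the depth of each library is unknown. Each library listed between 11723 and 12074 genes at 1 TPM or more. METTL16 itself was listed at 26.29 and 25.14 TPM with sgNS, compared with 17.62 and 18.75 TPM upon METTL16 KO, a log2 fold change of -0.50 (SE 0.062) with an adjusted p of 2.4e-05 in limma. All 10 hepatocyte lineage markers examined had a mean of at least 1 TPM, and their summed level was 18618 and 18695 TPM under sgNS, whereas METTL16 KO gave 32335 and 31885 TPM. Of these markers 8 were higher and 2, APOB and TF, lower (log2 fold changes of -0.17 and -0.43). Of all genes tested, 50.1% were higher and 25.6% lower at the adjusted p of 0.05 used below. With median-ratio scaling or quantile normalization, both described below, 7 of the markers passed as higher and 2 as lower. AFP alone went from a mean of 1765 to one of 10292 TPM. Of 7 leukocyte markers 3 reached that mean, and the sum of the list went from 1515.6 and 1557.8 TPM to 920.96 and 934.48 TPM, nearly all of it LYZ, which fell. CD68 and CD14 instead rose, with log2 fold changes of 1.49 and 0.59. With median-ratio scaling and quantile normalization, CD14 was at 0.44 and 0.17. It did not pass in limma with either (adjusted p = 0.090 and 0.49). PTPRC, which marks leukocytes, was at or below 0.48 TPM in every library. Stromal and endothelial markers reached a mean of 1 TPM in 2 of 7 genes and summed to between 5.37 and 7.5 TPM. These 2 genes, PECAM1 and PDGFRB, fell, with log2 fold changes of -0.75 and -0.67. All libraries came from the Huh7 line, so these markers are levels in Huh7 cells and not counts of cell types. The part of these differences in the results below was not tested. Bulk samples cannot tell a change in every cell from a change in some of the cells. The median log2 fold change over the 11971 genes tested was 0.16, and changes are to be read against it. Log2 fold changes are differences of mean log2(TPM + 0.1), METTL16 KO minus sgNS, tested with limma among genes with a mean of at least 1 TPM and adjusted over all of them (Benjamini-Hochberg).

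In METTL16 KO, TRAIL, RIPK1, TNFRSF1A, CFLAR and TNFRSF21 rose, while the TRAIL receptors TNFRSF10B and TNFRSF10D fell. Of the 10 genes 9 passed the filter on low values, since FAS was hardly detected in either group. At an adjusted p under 0.05, 5 of the 9 were higher and 2 were lower. That share has to be set beside the 75.7% of all genes tested that passed in either direction, 50.1% higher and 25.6% lower, so that the number of calls is close to the background. The groups did not overlap in 8 of the 9 genes, against 87.4% of all genes. Only TNFSF10 also reached an absolute log2 fold change of 1, as did 11.5% of all genes tested, 7.7% higher and 3.77% lower. The median log2 fold change of the 9 genes was 0.30, beside 0.16 over all genes, and with median-ratio scaling it was 0.14, beside -0.0016.

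**Figure D1:**
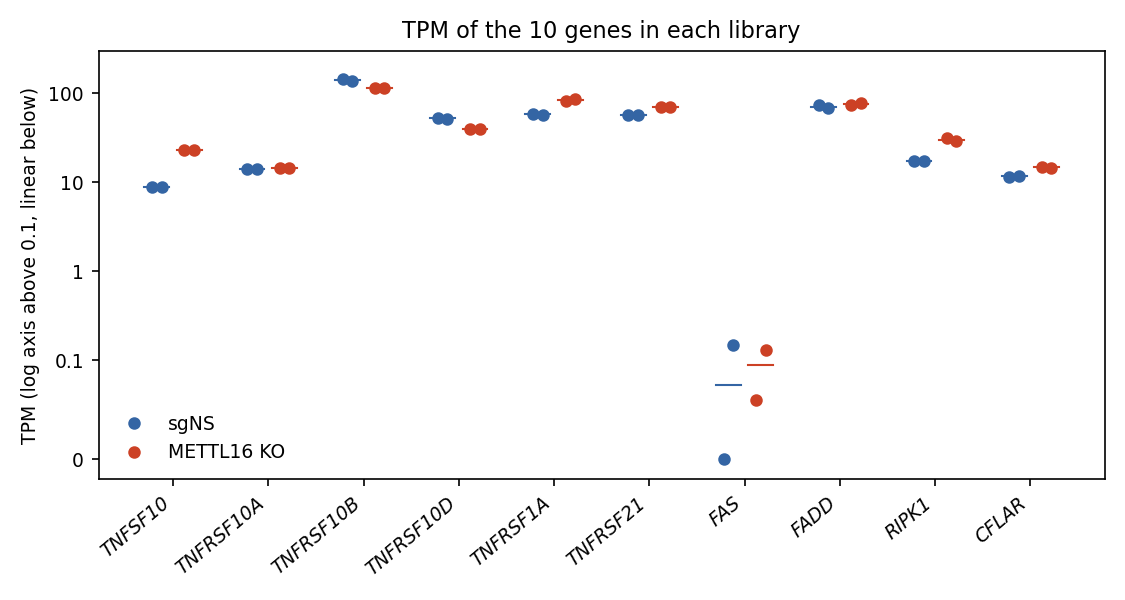
TPM of each of the 10 genes (log axis above 0.1 TPM, linear below) in the 2 sgNS libraries (blue) and the 2 METTL16 KO libraries (red), with a line at each group's mean. TNFSF10 went from about 8.76 to 22.95 TPM, TNFRSF10B stayed the most abundant of the genes at 141 and 114 TPM, and FAS lay at or below 0.15 TPM in every library.

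TNFSF10 encodes TRAIL, a ligand that many cell types can make and whose transcription is known to respond to interferon. The gene lies on chromosome 3 from 172505508 to 172523475 (GRCh38, minus strand). Its level was 8.77 and 8.75 TPM with sgNS, against 22.89 and 23.01 TPM upon METTL16 KO. Both METTL16 KO libraries were high and both sgNS libraries low, with a gap far wider than the spread within either group. Its log2 fold change was 1.38 (SE 0.066, 95% interval 1.23 to 1.52), with an adjusted p of 1.4e-08 in limma, and 5.43% of all genes tested had a larger absolute change. After division of every library by its median ratio to the geometric mean of a gene (median-ratio scaling) it was 1.22, and after quantile normalization 1.21. By Euclidean distance between profiles over the 4 libraries, each centred on its own mean, the genes nearest to TNFSF10 were INHBE, TBC1D12 and ZNF641, at distances of 0.0191, 0.0366 and 0.0371 on the log2 scale. INHBE, for example, was listed at 18.31 TPM in each library with sgNS, against 47.09 and 48.2 TPM upon METTL16 KO.

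RIPK1, the kinase that links the TNF receptor to ubiquitin ligases and, on the other side, to cell death, had the next largest rise. It lies on chromosome 6 from 3063824 to 3115187 (plus strand). It was measured at 17.54 and 17.37 TPM with sgNS, compared with 31.26 and 29.05 TPM upon METTL16 KO. The groups lay apart, and the METTL16 KO libraries differed more from each other than the sgNS libraries did. The log2 fold change was 0.78 (SE 0.060, 95% interval 0.65 to 0.92) with an adjusted p of 5.9e-07 in limma, and 18.3% of all genes had a larger absolute change. It was 0.62 with median-ratio scaling and at 0.60 with quantile normalization.

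Promoters of the 2 genes with the largest rises are shown because both held the core letters of the interferon-stimulated response element, searched on both strands as GAAA and GAAA with 2 unspecified bases between them. The windows are the 250 bases before a RefSeq transcription start on GRCh38.p14, printed from 5′ to 3′ on the strand of the gene. TNFSF10 was read from chr3:172523431-172523680 (minus strand) and RIPK1 from chr6:3068128-3068377 (plus strand), the latter being 1 of its 3 windows, and capitals mark the match, which lies on the opposite strand as the letters stand here. TNFRSF1A, read from chr12:6342077-6342326 (minus strand), is shown as a gene that rose and whose window held no match to any motif searched.
TNFSF10: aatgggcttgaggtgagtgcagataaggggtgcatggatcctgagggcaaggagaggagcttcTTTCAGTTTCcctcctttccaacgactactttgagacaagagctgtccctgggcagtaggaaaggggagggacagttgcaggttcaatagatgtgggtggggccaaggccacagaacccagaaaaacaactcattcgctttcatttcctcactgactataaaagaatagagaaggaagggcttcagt
RIPK1: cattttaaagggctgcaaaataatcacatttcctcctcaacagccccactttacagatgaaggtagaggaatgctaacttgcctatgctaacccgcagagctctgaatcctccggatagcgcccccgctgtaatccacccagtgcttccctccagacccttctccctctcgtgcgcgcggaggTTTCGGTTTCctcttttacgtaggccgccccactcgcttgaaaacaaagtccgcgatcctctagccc
TNFRSF1A: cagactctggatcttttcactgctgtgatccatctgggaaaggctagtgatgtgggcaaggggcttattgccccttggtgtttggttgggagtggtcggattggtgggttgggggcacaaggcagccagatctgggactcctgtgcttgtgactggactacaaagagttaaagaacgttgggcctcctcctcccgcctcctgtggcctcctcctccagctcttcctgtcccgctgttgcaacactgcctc

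The match began 187 bases before the start in TNFSF10 and 67 bases before it in RIPK1, and the neighbouring RIPK1 window that overlaps this one held the same letters. Promoter windows were found for 7 of the 10 genes (14 windows), all but TNFRSF10A, TNFRSF10B and TNFRSF10D. This pattern was found in 3 of these 14 windows, in TNFSF10 and RIPK1 alone of the 7 genes, and in 3.02% of all 35116 windows of the same length. NF-kB-like letters, GGG and CC with 5 unspecified bases between them, were found in 7 of the 14 windows (5 of the 7 genes). Of all windows 54.4% hold them. The GC box GGGCGG was found in 10 of the 14 windows (5 of the 7 genes) and in 42.6% of all windows. AP-1 letters, TGANTCA, were found in 2 of the 14 windows (CFLAR and FAS) and in 6.57% of all windows. The GAS element TTCNNNGAA was found in no member window and in 6.57% of all. The shares over all are of windows, so they stand beside the window counts and not the gene counts. Matches of different motifs may overlap, and a match describes the letters and not the binding of a factor.

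TNFRSF10A and TNFRSF10B are the receptors through which TRAIL signals death, and TNFRSF10D is a decoy whose death domain is truncated. All are minus-strand genes of chromosome 8 (GRCh38), TNFRSF10B from 23020133 to 23069031, TNFRSF10D from 23135588 to 23164027 and TNFRSF10A from 23190452 to 23225102. Although the genes are related, no stretch as long as a read was shared between their annotated transcripts and those of any other gene. Genes annotated on the opposite strand cover 16.7% of the exonic bases of TNFRSF10A and 7.52% of those of TNFRSF10B.

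TNFRSF10B was the most abundant of the 10 genes in both groups. It was listed at 144.33 and 137.85 TPM under sgNS, whereas METTL16 KO gave 113.19 and 115.51 TPM. Both METTL16 KO libraries were lower than both sgNS libraries, and the log2 fold change was -0.30 (SE 0.039, 95% interval -0.39 to -0.22), with an adjusted p of 3.5e-05 in limma. With median-ratio scaling the value was -0.47 and with quantile normalization -0.40.

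TNFRSF10D also fell, from 52.81 and 51.45 TPM with sgNS to 39.92 and 39.61 TPM upon METTL16 KO. Its log2 fold change was -0.39 (SE 0.047, 95% interval -0.49 to -0.29), with an adjusted p of 1.8e-05 in limma, and both scalings made it larger, at -0.55 and -0.52. Only 15.1% of all genes tested had a lower log2 fold change than TNFRSF10D, and 18.6% had a lower one than TNFRSF10B.

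TNFRSF10A was not called. Its level was 13.98 TPM in each sgNS library, against 14.33 and 14.47 TPM upon METTL16 KO. The libraries of the groups did not overlap, but the log2 fold change was 0.042 (SE 0.066, 95% interval -0.10 to 0.19), with an adjusted p of 0.57 in limma. Its direction turned with the scaling, to -0.12 with median-ratio scaling and to -0.14 with quantile normalization, and neither value passed the test. TNFRSF10C, a decoy with a lipid anchor in the same cluster, was at 0.56 and 0.47 TPM with sgNS, compared with 0.11 and 0 TPM upon METTL16 KO and was below the filter.

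The summed level of the 4 TRAIL receptors was 211.7 and 203.8 TPM under sgNS, whereas METTL16 KO gave 167.6 and 169.6 TPM. Within that sum TNFRSF10B held between 67.56% and 68.18% in every library. TNFRSF10A held 6.604% and 6.861% in sgNS and 8.553% and 8.532% in METTL16 KO, whereas TNFRSF10D went from 24.95% and 25.25% to 23.83% and 23.36%. The part held by TNFRSF10A was higher and that of TNFRSF10D lower in both METTL16 KO libraries.

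TNFRSF1A, the widely expressed receptor for TNF, rose. It was measured at 59.24 and 57.53 TPM with sgNS, against 81.15 and 85.16 TPM upon METTL16 KO, without overlap between the groups. The log2 fold change was 0.51 (SE 0.045, 95% interval 0.41 to 0.61), with an adjusted p of 1.6e-06 in limma, and it was 0.34 after median-ratio scaling and 0.38 after quantile normalization. The gene lies on chromosome 12 from 6328757 to 6342114 (minus strand). TNFRSF1B, the other TNF receptor, which lacks a death domain, was at or below 0.4 TPM in all libraries.

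TNFRSF21 is a death domain receptor studied mostly in neurons and immune cells, encoded on chromosome 6 from 47231532 to 47309905 (minus strand). It was listed at 56.34 and 57.18 TPM with sgNS, compared with 69.99 and 69.89 TPM upon METTL16 KO. The groups lay apart, with a log2 fold change of 0.30 (SE 0.042, 95% interval 0.21 to 0.39) and an adjusted p of 6.7e-05 in limma, but 61.5% of all genes tested had a lower log2 fold change, so that it moved little relative to the other genes. Median-ratio scaling reduced it to 0.14 (adjusted p = 0.015) and quantile normalization to 0.18 (adjusted p = 0.0043).

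FAS, encoded on chromosome 10 from 88953813 to 89029605 (plus strand) and the receptor for FASLG, was listed at 0 and 0.15 TPM under sgNS, whereas METTL16 KO gave 0.06 and 0.13 TPM. The groups overlapped, and at these levels neither a presence nor a difference can be read.

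FADD, the adaptor that joins the receptors to the initiator caspases, was abundant and was not called. Its level was 74.03 and 67.55 TPM with sgNS, against 73.69 and 78.44 TPM upon METTL16 KO, and the groups overlapped. The log2 fold change was 0.10 (SE 0.054, 95% interval -0.014 to 0.22), with an adjusted p of 0.098 in limma. Median-ratio scaling gave -0.061 and quantile normalization -0.029, while without replicate 1 of sgNS it was 0.17 and passed, with an adjusted p of 0.014 in limma. A long non-coding gene on the opposite strand covers 59.2% of the exonic bases of FADD, which lies on chromosome 11 from 70203296 to 70207390 (plus strand). The library kit keeps the strand, but whether the authors counted by strand is not given in the sources used here, so that reads of both genes may not have been told apart.

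CFLAR, which restrains CASP8 at the receptors, was listed at 11.54 and 11.82 TPM with sgNS, compared with 14.9 and 14.66 TPM upon METTL16 KO. Both METTL16 KO libraries were higher. The log2 fold change was 0.34 (SE 0.068, 95% interval 0.19 to 0.49), with an adjusted p of 9.4e-04 in limma. Of all genes tested 64.5% had a lower log2 fold change than CFLAR. Median-ratio scaling and quantile normalization each gave 0.17, with an adjusted p of 0.038. With scaling factors taken over all genes above 0 in every library, which was chosen after seeing the data, it was 0.14 and did not pass (adjusted p = 0.079). The value sums over all CFLAR transcripts, so the long and short forms of the protein, which act differently on CASP8, are not told apart. Of the read-length stretches of its transcripts, 1.69% also occur in transcripts of other genes. Other annotated genes cover 12.1% of its exonic bases, among them a long non-coding gene on the same strand.

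**Figure D2:**
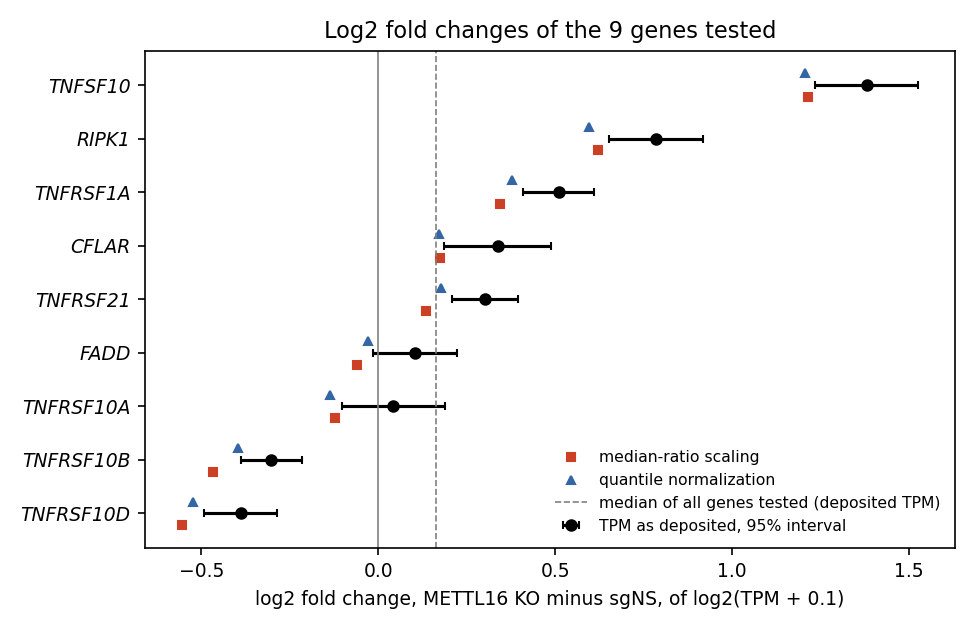
Log2 fold change (METTL16 KO minus sgNS, horizontal axis) of the 9 genes tested, with limma's 95% interval (black), and the value after median-ratio scaling (red squares) and quantile normalization (blue triangles). The dashed line is the median of all genes tested on TPM as deposited, 0.16. After median-ratio scaling and quantile normalization that median was -0.0016 and 0.0097. TNFSF10, RIPK1 and TNFRSF1A lie above the line under each scaling, and CFLAR lies just above it with median-ratio scaling and quantile normalization. TNFRSF10B and TNFRSF10D lie below 0 under each, and TNFRSF10A and FADD cross 0.

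Ordered by level in sgNS, the genes ran from TNFRSF10B (141 ± 4.6 TPM, SD, n = 2) through FADD (70.8 ± 4.6), TNFRSF1A (58.4 ± 1.2), TNFRSF21 (56.8 ± 0.59), TNFRSF10D (52.1 ± 0.96), RIPK1 (17.5 ± 0.12), TNFRSF10A (listed at 13.98 in both), CFLAR (11.7 ± 0.20) and TNFSF10 (8.76 ± 0.014) to FAS. In METTL16 KO the order became TNFRSF10B (114 ± 1.6 TPM, SD, n = 2), TNFRSF1A (83.2 ± 2.8), FADD (76.1 ± 3.4), TNFRSF21 (69.9 ± 0.071), TNFRSF10D (39.8 ± 0.22), RIPK1 (30.2 ± 1.6), TNFSF10 (22.95 ± 0.085), CFLAR (14.8 ± 0.17), TNFRSF10A (14.4 ± 0.099) and FAS. In either group no neighbours in the order overlapped in their 2 libraries, although TNFRSF1A and TNFRSF21 in sgNS, and CFLAR and TNFRSF10A in METTL16 KO, were close. TNFSF10 thus moved up past CFLAR and TNFRSF10A, and TNFRSF1A past FADD.

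Ratios of TPM values within a library do not depend on a scaling factor per library. For groups of 2 and 2 libraries, the smallest p that an exact permutation test (two-sided) can give is 0.33, and all 6 ratios computed gave that p, adjusted or not, so that they are given as values. The ratio of TNFSF10 to the sum of TNFRSF10A and TNFRSF10B, the ligand to its death-inducing receptors, was 0.0554 and 0.0576 in sgNS and 0.179 and 0.177 in METTL16 KO, a difference of 1.66 on the log2 scale. FADD to RIPK1 went from 4.22 and 3.89 to 2.36 and 2.70, a difference of -0.68. The ratio of CFLAR to CASP8, the inhibitor to the caspase it restrains, was 0.745 and 0.776 in sgNS and 0.558 and 0.598 in METTL16 KO, a difference of -0.40. CFLAR to FADD differed by 0.24, from 0.156 and 0.175 to 0.202 and 0.187. TNFRSF10A to TNFRSF10B went from 0.0969 and 0.101 to 0.127 and 0.125, a difference of 0.35. The decoy TNFRSF10D to the sum of the death-inducing receptors changed least, from 0.334 and 0.339 to 0.313 and 0.305, a difference of -0.12. None of the 6 ratios overlapped between the groups, but neither did 87.4% of all genes tested, and no such share was computed for ratios. A ratio of FAS to TNFRSF1A was not formed, because FAS was listed at 0 in 1 library.

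**Figure D3:**
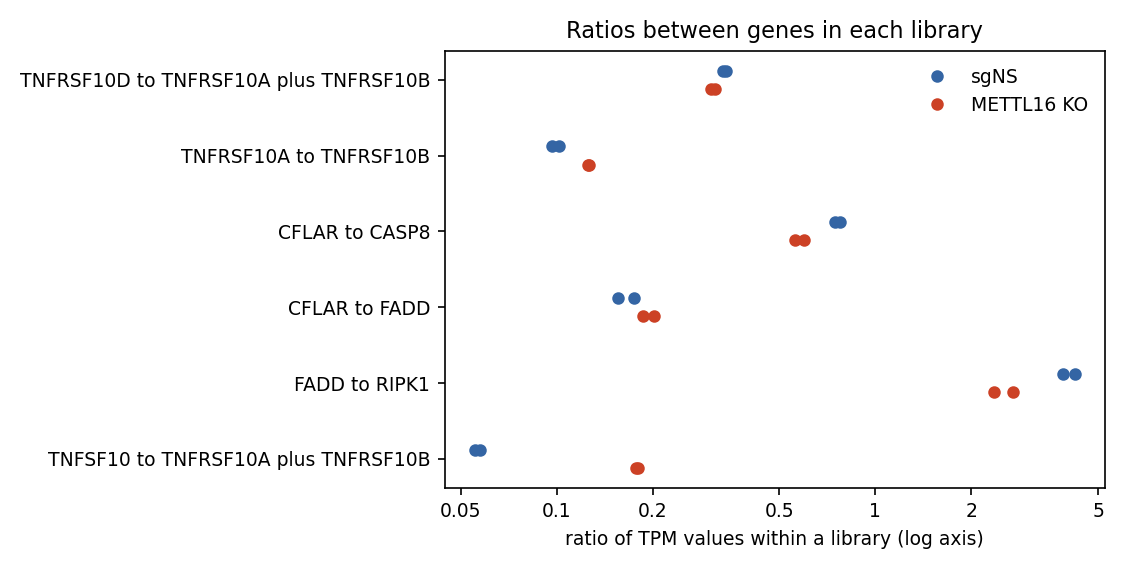
Ratios of TPM values within each library (log axis) for the 2 sgNS libraries (blue) and the 2 METTL16 KO libraries (red). The ratio of TNFSF10 to its death-inducing receptors moved most, from 0.0554 and 0.0576 to 0.179 and 0.177, and the ratio of the decoy TNFRSF10D to those receptors moved least.

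Other genes of the pathway were read from lists, with 51 of 64 genes in the table tested. By limma 37 of these were higher and 7 lower (adjusted p under 0.05), and their median was 0.41 on the log2 scale, beside 0.16 over all genes. With median-ratio scaling the counts were 31 and 10, with a median of 0.25, and with quantile normalization 29 and 9, with a median of 0.22. Among the 11971 genes tested, median-ratio scaling gave 4359 higher and 4375 lower in place of 5999 and 3065. Quantile normalization gave 4420 higher and 4248 lower. The counts of each list below on TPM as deposited are to be read against the 50.1% higher and 25.6% lower of all genes tested. Counts given with a scaling are to be read against the numbers of that scaling. Without replicate 1 of METTL16 KO, and likewise without replicate 2, 4 pathway genes were lower.

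Caspases and BID, the substrate through which CASP8 engages the mitochondria, rose in 6 of 6 genes. CASP8, the initiator caspase at the receptors, had a log2 fold change of 0.73 and BID of 0.62, while CASP10 had 0.38 and CASP6 0.23. CASP10 and CASP6 did not pass with median-ratio scaling (adjusted p = 0.064 and 0.23) or with quantile normalization (adjusted p = 0.071 and 0.16). CASP8 and CASP10 are neighbours of CFLAR on the plus strand of chromosome 2, where CFLAR runs from 201116154 to 201176687, CASP10 from 201182872 to 201229428 and CASP8 from 201233443 to 201361836 (GRCh38).

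Of 4 other ligands in the table, 3 were below the filter. FASLG was listed at 0 in all 4 libraries, TNFSF11 at or below 0.03 TPM and TNFSF15 at or below 0.19 TPM, while TNFSF12, at 1.75 and 1.26 TPM with sgNS, against 1.19 and 1.54 TPM upon METTL16 KO, was not called. TNF and LTA are not analysed here. Of the other receptors and decoys, TNFRSF11B (osteoprotegerin), a secreted decoy that can bind TRAIL, was the only 1 of 7 genes above the filter. It was measured at 13.62 and 13.74 TPM with sgNS, compared with 22.92 and 22.87 TPM upon METTL16 KO, a log2 fold change of 0.74 (SE 0.061) with an adjusted p of 9.8e-07 in limma.

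Adaptors around the receptors were higher in 5 of 8 genes and lower in 2, close to the shares of 50.1% and 25.6% over all genes tested. TRAF1, at a low level, had a log2 fold change of 0.85, TRAF6 of 0.67 and TRAF2, which binds the TNF receptor complex, of 0.45, whereas TRAF5 fell by 0.80 and PIDD1 fell by 0.56. With quantile normalization 2 of the 8 were higher, and TRAF1 did not pass (adjusted p = 0.30). Regulators that add or remove ubiquitin on RIPK1 and its partners were higher in 9 of 12 genes and lower in 1, and with either scaling 9 were higher and 2 lower. BIRC3, a ligase that ubiquitinates RIPK1, was listed at 0.58 and 0.61 TPM under sgNS, whereas METTL16 KO gave 7.79 and 7.69 TPM. TNFAIP3 (A20), which edits ubiquitin chains and limits NF-kB, went from 5.98 and 6.17 TPM to 26.89 and 26.02 TPM. Their log2 fold changes were 3.50 and 2.10, followed by TNIP1, a partner of TNFAIP3, with 0.60. OTULIN, which removes linear ubiquitin chains, fell from 22.15 and 23.13 TPM to 13.46 and 13.39 TPM, a log2 fold change of -0.75.

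The TAK1 and IKK list holds kinases that pass the signal of RIPK1 to NF-kB, together with their partner subunits. In it 7 of 9 genes were higher and 2 lower, and with either scaling 5 were higher and 2 lower. IKBKE had a log2 fold change of 1.24, IKBKB of 0.85 and TAB3 of 0.71, while IKBKG, the regulatory subunit of the IKK complex, fell by 0.64 and TAB1 fell by 0.15. Of 5 necroptosis genes 2 were tested, of which PGAM5 was higher, with 0.33. RIPK3 and MLKL, the core of the necroptosis pathway, are named here after their values were seen. RIPK3 was listed at 0.08 TPM in 1 METTL16 KO library and at 0 in the other 3 libraries, and MLKL was at 0.7 and 0.39 TPM with sgNS, against 0.98 and 0.99 TPM upon METTL16 KO.

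Transcription factors that are known to act on genes of this group were higher in 8 of 12 cases and lower in 2, beside 50.1% and 25.6% of all genes tested. With median-ratio scaling 7 were higher and 4 lower, and with quantile normalization 7 and 3. IRF1, an interferon-regulated factor, was listed at 4.92 and 4.52 TPM with sgNS, compared with 16.05 and 16.64 TPM upon METTL16 KO, a log2 fold change of 1.77. DDIT3 (CHOP), a stress factor known to activate TNFRSF10B, went from 30.66 and 32.12 TPM to 72.74 and 77.84 TPM, a log2 fold change of 1.26. TNFRSF10B was lower in the same METTL16 KO libraries, and a link between these levels was not tested. MYC had a log2 fold change of 0.72, while SP1 fell by 0.12 and JUN fell by 0.10.

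**Figure D4:**
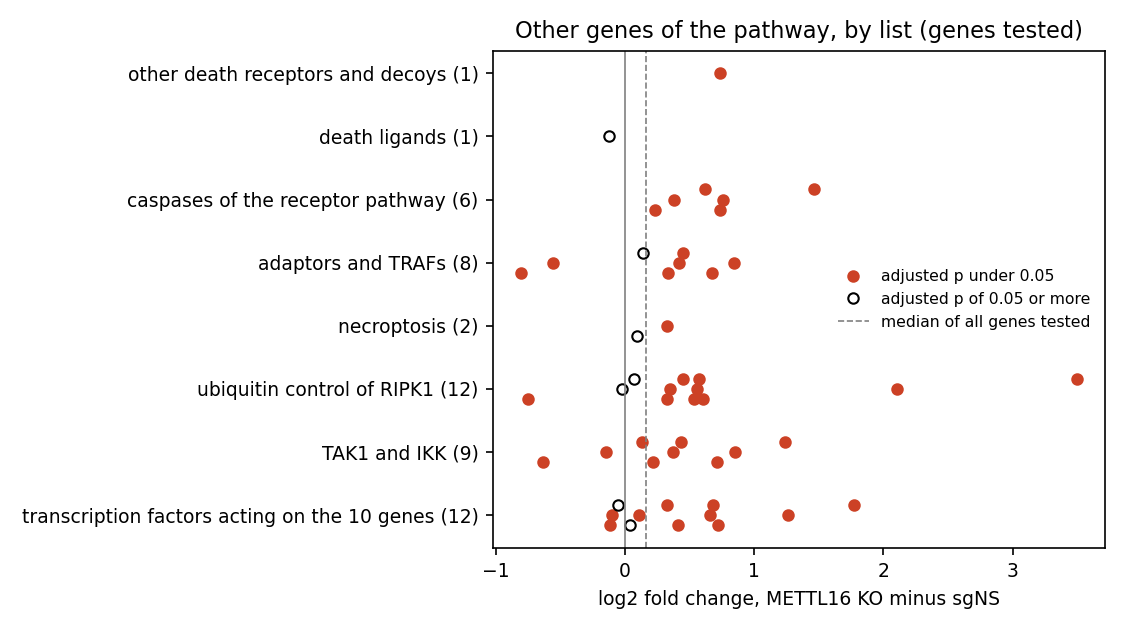
Log2 fold change (METTL16 KO minus sgNS, horizontal axis) of each pathway gene tested, by list, with the number of genes tested in brackets. Filled points passed an adjusted p of 0.05 in limma and the dashed line is the median of all genes tested, 0.16. All 6 genes of the caspase list lie above that line, and BIRC3 and TNFAIP3 lie farthest to the right.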

How the data were processed

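RNA-seq of 2 sgNS and 2 METTL16 KO libraries of Huh7 cells was used. Per the methods and the labels, the authors used Cutadapt for trimming, STAR for alignment (GRCh38) and RSEM for gene levels. Their versions and the annotation are not given in the sources used here. The authors deposited 1 table of TPM values rounded to 2 decimals. The methods call them RPKM, but each library sums to 1000000 within rounding. No column was left unused.

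Log2(TPM + 0.1) was fitted by limma 3.58.1 (lmFit, eBayes with trend) in R 4.3.3, over 11971 genes averaging 1 TPM or more, with Benjamini-Hochberg adjustment over all of them. The fit was tested on simulated data. Gene positions, exon overlaps and stretches of read length shared between genes were taken from GENCODE release 44 on GRCh38, and promoters from RefSeq (GRCh38.p14). Python 3.11.15, numpy 2.4.6, pandas 2.3.3 and matplotlib 3.10.9 were used.

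The members and lists were chosen with earlier results of these data known. Named are all members, METTL16, every ligand and caspase listed (except 2 genes that are not reported here), for every other list at most 3 called genes per direction, taken by size of change, and 3 genes with the profile nearest to that of TNFSF10. TNFRSF10C, TNFRSF1B and the marker genes were named after their values were seen. Alternatives were pseudocounts of 1 and 0.01, no filter, a minimum mean of 5 TPM, quantile normalization, median-ratio scaling, no trend, the replicate block and omission of each library, and a second median-ratio scaling was chosen after seeing the data. No sample was left out.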

Additional observations from a re-analysis of the deposited data

How the results depend on the processing

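The counts of members called, 2 lower and 5 higher, stayed at 2 lower and between 4 and 6 higher in the 13 alternatives, and TNFSF10 was in each of them the 1 gene past the fold threshold. TNFRSF10A, at 0.042, was at -0.12 with median-ratio scaling, at -0.15 with the factors over all genes above 0 (chosen after seeing the data) and at -0.14 with quantile normalization, and FADD, at 0.10, was at -0.061, -0.093 and -0.029. Median-ratio scaling lowered the log2 fold changes here, because its factors were 0.9482 and 0.9407 with sgNS and 1.062 and 1.056 upon METTL16 KO. In place of 7 pathway genes lower, there were 11 with the factors over all genes above 0, 4 with limma without a trend, and between 4 and 6 with a library left out (4 without either METTL16 KO library). Past the fold threshold, 1 pathway gene was lower without a filter and 1 with quantile normalization. The cause of the other differences was not tested. A lone library left in a group is assumed to vary like the other group. METTL16 was lower and passed in all 13 alternatives, from -0.69 to -0.45.

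The replicate numbers gave no pairing, since same-numbered libraries had deviations with a correlation of -0.0445 across genes. With the replicate block, 2 members were lower and 5 higher, 37 pathway genes were higher and 5 lower, and METTL16 was at -0.50, with 1 residual degree of freedom. No depth is known, so counting error could not be given.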

Other observations

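Beyond the receptor genes, 18 other genes within 1 Mb of the span from TNFRSF10B to TNFRSF10A on chromosome 8 (23020133 to 23225102 of GRCh38) were tested. By limma 7 were higher, 2 lower and 9 not called (adjusted p under 0.05), beside 50.1% higher and 25.6% lower of all genes tested. Their log2 fold changes ran from -0.41 to 1.04, with a median of 0.082, beside 0.16 over all genes. This region was looked at after the values of the receptor genes were seen.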
